A study of Rattus norvegicus with 6 samples.

Results

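A set of 9 transcription factor genes that mark classes of spinal interneuron was followed: Lbx1, Tlx3, Lmx1b, Lhx1, Lhx5, Bhlhe22, Evx1, En1 and Sim1. They were taken by gene symbol, at a time when earlier results of these data were known. Of the 9, 7 had a transcript cluster (the array's unit for a gene, read by many probes) with that symbol alone, among 14506 genes so named. Tlx3 and En1 had no such cluster in the probe annotation used here, so no value is given for them. Each of the 7 had a single cluster.

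The cultures were primary motor neurons taken from rat embryos at embryonic day 13.5 and kept for 2 days in vitro. One group received 1 microM camptothecin for 2 h, and the other DMSO, its solvent, for the same time, with 3 arrays per group. Camptothecin, a plant compound, locks topoisomerase 1 onto the DNA strand it has cut. The comparison asks which RNAs differ after brief exposure to it. The labels call the samples of a group biological replicates but do not say whether they came from separate litters or platings, and the p-values below cover only the spread among these 6 samples. How the motor neurons were enriched is not stated in the labels.

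During spinal cord development, progenitors at different heights of the neural tube give rise to distinct neuron classes, and each class switches on its own transcription factors as it leaves the cell cycle. Most of these factors are homeodomain proteins, which bind AT-rich DNA and keep one transmitter and wiring programme on while holding alternatives off. Dorsal classes process touch, itch and pain, and ventral classes belong to the circuits of walking. Motor neurons use another set, with Isl1, Lhx3 and Mnx1 among its best known members.

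The defining motor neuron genes Chat and Mnx1 had no cluster with 1 symbol here, so the labelled cell type could not be checked against them. Of 17 motor neuron genes 14 were measured. Their brightness over the 6 arrays ran from the 26.6th percentile of all clusters (Isl2) to the 82.4th (Gfra1), and 7 lay below the median. Isl1 lay at the 35.5th and Lhx3 at the 53.2nd. The 18 transmitter and peptide genes of spinal interneurons ran from the 21.2nd to the 96.3rd, and 4 lay below the median. Brightness depends on the probes, so these ranks do not show which of the genes were expressed, and the arrays do not give the share of any cell type.

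None of the 7 measured factors of the set passed the test after 2 h of camptothecin. By limma's moderated test with Benjamini-Hochberg adjustment over all 29214 clusters, 0 of 7 rose and 0 fell at an adjusted p under 0.05, and 0 had an unadjusted p under 0.05. Over the whole array 18% of clusters passed, 10.1% rose and 7.91% fell, and 31.8% had an unadjusted p under 0.05. The estimates ran from -0.03 for Sim1 to 0.26 for Lhx5 on the log2 scale, with a median of 0.10, against a median of 0.07 over all clusters. The smallest change called anywhere on the array was 0.22 in size, and 6 of the 7 estimates were smaller than that. A p above the threshold does not show that a gene stayed the same, so each change is given below with its 95% interval (limma, n = 3 per group). In whole cultures, fewer cells of a class and less RNA per cell cannot be told apart.

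**Figure D1:**
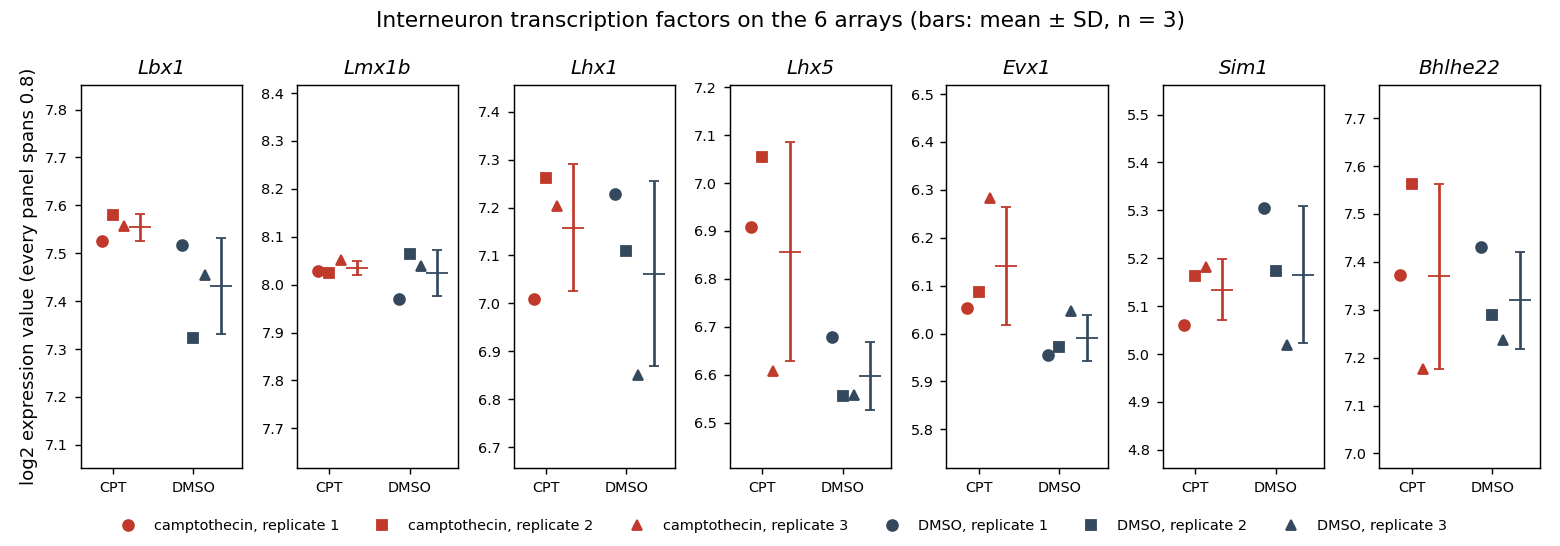
Log2 expression values (vertical axis, each panel spanning 0.8) of the 7 measured factors in the 3 camptothecin arrays (CPT, red, left) and the 3 DMSO arrays (dark, right), with symbols for the replicate number and bars for the mean and SD. The groups lie apart, with the camptothecin arrays above, for Lbx1 and Evx1, and overlap for the other 5 genes.

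The dorsal factors come first. Lbx1 is a homeodomain factor of the dI4 to dI6 classes, which in the mouse holds dorsal horn neurons to an inhibitory fate. It read 7.53, 7.58 and 7.56 in the camptothecin arrays, against 7.52, 7.32 and 7.46 in the DMSO arrays. All camptothecin values lay above all DMSO values, but by a gap of only 0.0074. The change was 0.12 (SE 0.07, 95% interval -0.05 to 0.30, limma adjusted p = 0.315), and 0.067 without DMSO replicate 2.

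Tlx3, which in the mouse promotes the glutamatergic fate and opposes Lbx1, was one of the unmeasured genes. Lmx1b, a LIM-homeodomain factor of dorsal excitatory neurons and also of serotonergic neurons, read 8.03, 8.03 and 8.05 with camptothecin and 7.97, 8.06 and 8.04 with DMSO. The camptothecin values lay inside the range of the DMSO values. Lmx1b was the steadiest of the set, with an SD within groups of 0.036, smaller than that of all but 4.17% of genes. Its change of 0.01 therefore carries the narrowest interval of the 7 genes, -0.14 to 0.16 (SE 0.06, limma adjusted p = 0.929).

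Lhx1, Lhx5 and Bhlhe22 are shared by dorsal and ventral classes. Lhx1 and Lhx5 are close LIM-homeodomain relatives that in the mouse maintain Pax2 and the inhibitory programme of the dorsal horn. Lhx1 read 7.01, 7.26 and 7.20 with camptothecin and 7.23, 7.11 and 6.85 with DMSO, so the groups overlapped. Its change was 0.10 (SE 0.12, interval -0.18 to 0.37, limma adjusted p = 0.635).

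Lhx5 had the largest estimate of the set. It read 6.91, 7.06 and 6.61 in the camptothecin arrays and 6.68, 6.55 and 6.56 in the DMSO arrays. Camptothecin replicates 1 and 2 lay above every DMSO array, and replicate 3 lay within the DMSO range. The change was 0.26 (SE 0.12, interval -0.02 to 0.54, limma adjusted p = 0.188). Lhx5 passed in 1 of 16 alternative settings, the one without camptothecin replicate 3 (0.39, limma adjusted p = 0.0464). Without camptothecin replicate 2 the change was 0.16 and did not pass. Over all 16 alternative settings the limma adjusted p ran from 0.0464 to 0.984.

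Bhlhe22 is a basic helix-loop-helix repressor needed in the mouse for inhibitory dorsal horn neurons that restrain itch. It read 7.37, 7.56 and 7.18 with camptothecin and 7.43, 7.29 and 7.24 with DMSO. Camptothecin replicates 2 and 3 were the highest and the lowest of all 6 arrays. The change was 0.05 (SE 0.11, interval -0.21 to 0.31, limma adjusted p = 0.801), and its sign turned in 4 of 16 alternatives.

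Both measured ventral factors were below the median brightness of the array. Evx1 is a homeodomain factor of V0 commissural neurons and lay at the 45.2nd percentile. It read 6.05, 6.09 and 6.28 with camptothecin and 5.96, 5.97 and 6.05 with DMSO. The groups did not overlap, again by a narrow gap of 0.0078. The change was 0.15 (SE 0.08, interval -0.04 to 0.35, limma adjusted p = 0.265), and 0.080 without camptothecin replicate 3. The V1 factor En1 was not measured.

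Sim1, a basic helix-loop-helix PAS factor of V3 excitatory neurons, lay at the 25.9th percentile of brightness. It read 5.06, 5.16 and 5.18 with camptothecin and 5.30, 5.17 and 5.02 with DMSO. The camptothecin values lay inside the DMSO range. The change was -0.03 (SE 0.09, interval -0.24 to 0.18, limma adjusted p = 0.853).

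Groups did not overlap for 2 of the 7 factors, both higher with camptothecin. That share reads against 24.5% of all clusters that lay apart in this direction and 13% that lay apart in the other, so it is near the background. Added as linear signal, the 7 genes gave 957 to 1031 per array with camptothecin and 898 to 961 with DMSO, and those ranges overlapped.

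**Figure D2:**
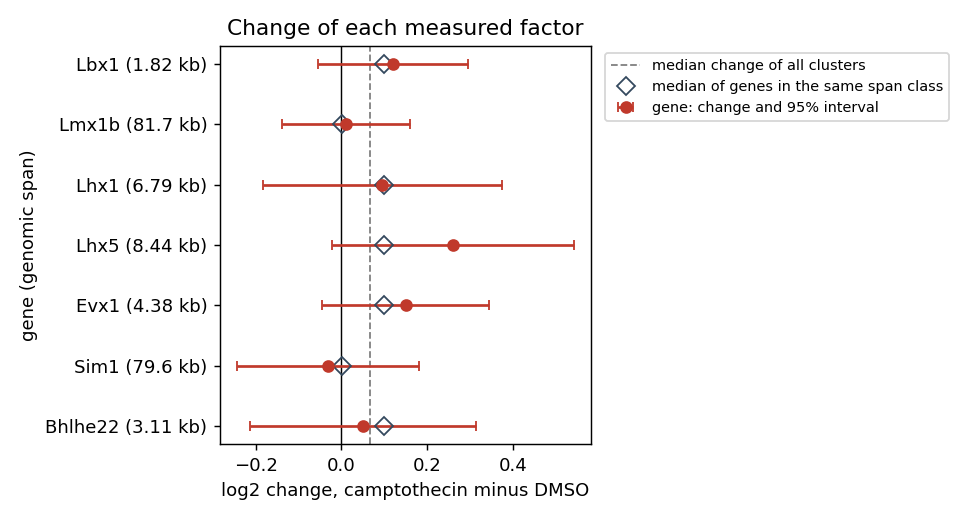
Log2 change, camptothecin minus DMSO (horizontal axis), of the 7 factors with 95% intervals, beside the median change of all genes in the same class of genomic span (diamonds) and of all clusters (dashed line, 0.07). Every interval includes 0, and each also includes the median of its span class.

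The scale bears on the sign of these small values. Centring each array on 58 ribosomal protein genes shifted the median change of all clusters by -0.26, and left 6 of the 7 estimates below 0, while that of Lhx5 was 0.0032 (limma adjusted p = 0.984). Lmx1b (-0.25, limma adjusted p = 0.0394) and Sim1 (-0.29, limma adjusted p = 0.0476) then passed as lower. Under the same centring 7777 of all 29214 clusters fell and 619 rose, so falls were common over the whole array. Relative to the median of all clusters the changes do not depend on such a shift, and they ran from -0.10 for Sim1 to 0.19 for Lhx5.

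Genomic span was set beside the changes, since long genes fell far more often than short ones in these arrays. By RefSeq's GRCr8 annotation, 5 of the 7 factors span under 10 kb: Lbx1 1.82 kb, Bhlhe22 3.11 kb, Evx1 4.38 kb, Lhx1 6.79 kb and Lhx5 8.44 kb. Their changes of 0.05 to 0.26 lay on both sides of 0.10, the median of the 5051 genes of that class, of which 15.3% rose and 1.21% fell. Lmx1b spans 81.7 kb and Sim1 79.6 kb. Their changes of 0.01 and -0.03 lay near the median of 0.0025 over the 3516 genes of 30 to 100 kb, of which 5.43% rose and 16.2% fell. Within its span class each factor stood between the 38.3rd percentile (Bhlhe22) and the 77.3rd (Lhx5).

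The start regions of 3 of these genes are shown to give their base composition. RefSeq's GRCr8 table gave 300-base windows (250 bases before the start and 50 after) for Lbx1, Tlx3, Lmx1b, Lhx1, En1, Evx1 and Sim1. The arrays measured RNA and hold no readout of the promoters. Lbx1 and Lmx1b are the 2 dorsal genes whose spans differ most, and Evx1 is a window with none of the motifs searched. Capitals mark the GC box GGGCGG on either strand.
Lbx1 (chr1:254034777-254035076, minus strand): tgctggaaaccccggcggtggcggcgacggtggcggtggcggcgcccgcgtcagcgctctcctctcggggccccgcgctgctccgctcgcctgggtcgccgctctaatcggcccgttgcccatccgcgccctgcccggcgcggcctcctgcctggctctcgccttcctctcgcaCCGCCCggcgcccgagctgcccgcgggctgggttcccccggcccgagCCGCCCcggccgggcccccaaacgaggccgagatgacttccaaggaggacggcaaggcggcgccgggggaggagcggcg
Lmx1b (chr3:37338508-37338807, minus strand): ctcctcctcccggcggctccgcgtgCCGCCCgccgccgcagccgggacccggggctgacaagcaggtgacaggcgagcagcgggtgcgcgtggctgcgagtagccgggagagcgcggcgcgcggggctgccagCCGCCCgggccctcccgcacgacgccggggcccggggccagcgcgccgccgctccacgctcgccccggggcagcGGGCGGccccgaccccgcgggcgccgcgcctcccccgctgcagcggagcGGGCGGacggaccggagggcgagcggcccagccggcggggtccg
Evx1 (chr4:82746942-82747241, plus strand): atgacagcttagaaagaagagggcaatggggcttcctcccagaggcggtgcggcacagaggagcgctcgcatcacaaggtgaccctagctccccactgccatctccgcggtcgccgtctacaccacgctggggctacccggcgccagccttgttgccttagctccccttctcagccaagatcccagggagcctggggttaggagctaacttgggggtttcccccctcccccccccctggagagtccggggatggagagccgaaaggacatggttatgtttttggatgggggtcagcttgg
The Lbx1 window is 78.7% G or C with 46 CpG pairs, the Lmx1b window 84.7% with 54, and the Evx1 window 62.3% with 13, against medians of 51.7% and 7 over 33469 windows. The windows of Lhx1 (64.7%), En1 (62%) and Sim1 (61%) were also above the median in G or C, and that of Tlx3 was at the median (51.7%). GGGCGG was found in 5 of the 7 windows, against 33.1% of all windows, and CCAAT in 2 (Tlx3 and En1), against 37.5%. CACGTG was found in 1 (En1), against 6.42%. TATAAA and TAATTA, a core bound by many homeodomain proteins, were found in 0 of the 7, against 14.2% and 5.36%. All were searched on both strands, and no motif contains another. A match is a description and not a site.

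Each factor was also set against its closest measured relative, 6 pairs chosen after the values were seen. Lmx1a, which helps to specify roof plate and midbrain dopamine neurons, was the 1 of 15 measured family relatives that passed the test. It read 6.24, 6.21 and 6.30 with camptothecin and 6.49, 6.61 and 6.54 with DMSO, a change of -0.30 (SE 0.07, limma adjusted p = 0.025). That call was lost in 8 of 16 alternatives, including each in which 1 array was left out. The difference between the Lmx1b and Lmx1a changes was 0.31, with an exact permutation p of 0.1 (two-sided, the smallest that 3 against 3 arrays allow) and 0.6 adjusted over the 6 pairs. Lmx1a spans 144 kb, in a longer class than Lmx1b.

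Lhx1 and Lhx5 differed in change by -0.16, with an exact permutation p of 0.4 (two-sided). Their per-array difference averaged 0.30 ± 0.26 in camptothecin and 0.47 ± 0.15 in DMSO (SD, n = 3 each), which overlapped. Evx1 (0.15) and its relative Evx2 (0.18) gave a difference of -0.02. The other pairs were Lbx1 and Lbx2 (0.22), Sim1 and Sim2 (0.0052) and Bhlhe22 and Bhlhe23 (0.05), and no pair had an exact permutation p under 0.1, which is the floor of the design. Of the 15 relatives 0 rose and 14 did not pass, with a median change of -0.00068.

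Some other transcription factors that mark interneuron classes passed the test. Of 40 listed 26 were measured, 4 fell, 2 rose and 20 did not pass, with a median change of 0.03. In the same fit 9.35% of all genes fell and 11.3% rose. With ribosomal centring 11 of the list fell and 1 rose, where 7777 of all 29214 clusters fell and 619 rose. With any 1 array left out 2 of the list fell and 1 rose. Pax8, a relative of Pax2 found in inhibitory classes, read 6.45, 6.31 and 6.36 with camptothecin, against 7.11, 6.93 and 7.03 with DMSO. Every camptothecin array was below every DMSO array, and the change was -0.65 (SE 0.08, limma adjusted p = 0.00222). Ebf2, a helix-loop-helix factor of early neurons, fell by 0.56 (limma adjusted p = 0.00378). Lmx1a was another fall. Pax2, named after its value was seen, which marks inhibitory interneurons and depends on Lhx1 and Lhx5 in the mouse dorsal horn, read 8.31, 8.33 and 8.24 with camptothecin and 8.58, 8.57 and 8.48 with DMSO. Its change of -0.25 (limma adjusted p = 0.0414) was lost in 8 of 16 alternatives.

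The risers of that list were Nr4a2 and Drgx. Nr4a2, an orphan nuclear receptor that is also an immediate-early gene, read 11.43, 11.50 and 11.48 with camptothecin and 10.22, 10.54 and 10.62 with DMSO, a rise of 1.01 (SE 0.11, limma adjusted p = 0.00141). Drgx, a homeodomain factor of dorsal horn and sensory neurons, rose by 0.32 (limma adjusted p = 0.0456), a call lost in 10 of 16 alternatives.

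**Figure D3:**
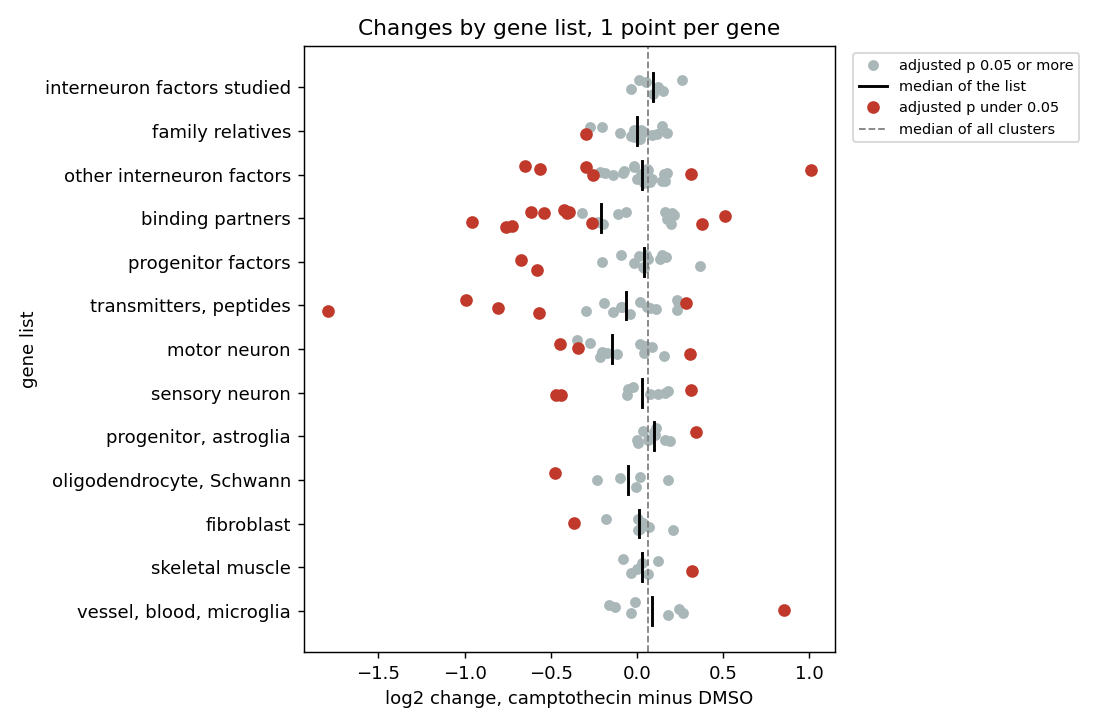
Log2 change, camptothecin minus DMSO (horizontal axis), of every measured gene in 13 lists (rows, 1 point per gene), red where the adjusted p was under 0.05, with a bar at the median of the list and a dashed line at the median of all clusters (0.07). The top row, the 7 factors, holds no red point, while the binding partners hold 11 in 22 and the transmitters and peptides 5 in 18. Over all clusters 18% passed.

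Genes of proteins that bind the factors or act with them went both ways. Of 27 partners 22 were measured, 9 fell, 2 rose and 11 did not pass, and the median change was -0.21. Over all genes 9.35% fell and 11.3% rose, so the 2 rises are near the background. The 22 partners lay at the 52.7th percentile of brightness or above. Of the 14607 brighter clusters, fitted alone, 2571 fell and 3909 rose. With ribosomal centring 14 partners fell and 0 rose, where 7777 of all 29214 clusters fell and 619 rose. With 1 array left out 6 to 9 partners fell and 0 to 2 rose. LIM-homeodomain proteins such as Lhx1, Lhx5 and Lmx1b act through the adaptors Ldb1 and Ldb2, and those 2 went opposite ways. Ldb1 read 9.45, 9.65 and 9.57 with camptothecin and 9.18, 9.20 and 9.15 with DMSO, a rise of 0.38 (SE 0.07, limma adjusted p = 0.0147) that was lost in 6 of 16 alternatives. Ldb2 read 9.79, 9.76 and 9.62 with camptothecin and 10.32, 10.23 and 10.24 with DMSO, a change of -0.54 (SE 0.07, limma adjusted p = 0.00408) that passed in all 16. Both were named after their values were seen. Ldb1 spans 25.8 kb, and Ldb2 spans 321 kb, in the class of which 40.3% fell.

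Rlim, a ubiquitin ligase that removes LIM cofactors, read 9.74, 9.70 and 9.75 with camptothecin, against 10.44, 10.47 and 10.45 with DMSO. The arrays of each group lay close together, and the change was -0.73 (SE 0.06, limma adjusted p = 0.000458). Among the Groucho corepressors, which are recruited by Engrailed-type repressor motifs, Tle4 fell by 0.76 and Tle1 by 0.61, while Tle5, the short member, rose by 0.51. The call of Tle5, named after its value was seen, was lost in 9 of 16 alternatives, and that of Tle1 in 3, among them those without DMSO replicate 1 or 2.

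Among homeodomain partners, Meis1 read 8.98, 9.03 and 8.87 with camptothecin and 9.98, 9.82 and 9.94 with DMSO. That change of -0.95 (SE 0.08, limma adjusted p = 0.000415) was the largest of the list. Pbx3 (-0.39) and Meis2 (-0.26) also fell, as did the E proteins Tcf12 (-0.42) and Tcf4 (-0.41), with which basic helix-loop-helix factors pair; these 4 were named after their values were seen, and Meis2 was lost in 7 of 16 alternatives and Tcf4 in 2. Arnt2, the dimerisation partner of Sim1, was also named after its value was seen. It read 8.77, 9.07 and 8.85 with camptothecin and 8.79, 8.72 and 8.69 with DMSO, and did not pass (0.16, interval -0.06 to 0.38, limma adjusted p = 0.281).

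Span moved with these calls. Of the 9 partners that span 100 kb or more 7 fell and 0 rose, and of the 13 shorter ones 2 fell and 2 rose. Among all genes 33.3% of those of 100 to 300 kb and 40.3% of those of 300 kb or more fell. None of the 7 interneuron factors reaches 100 kb. The part of span in these lists was not tested.

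**Figure D4:**
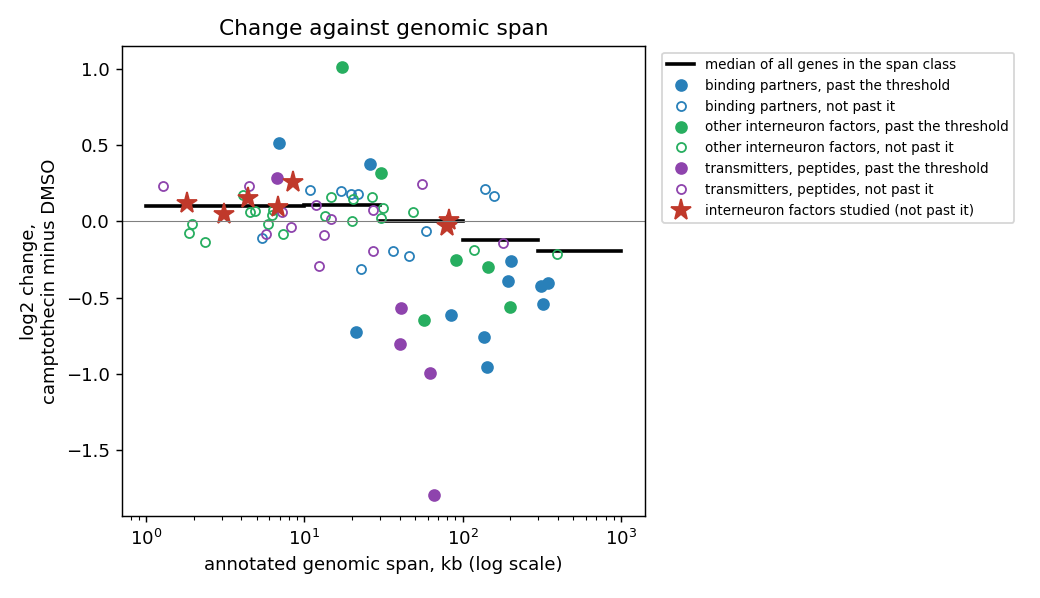
Log2 change, camptothecin minus DMSO (vertical axis), against annotated genomic span in kb (log scale) for the 7 factors (stars) and for partners, other interneuron factors and transmitter genes (circles, filled where the adjusted p was under 0.05), with black bars at the median of all genes in each span class. The stars lie between -0.03 and 0.26 at spans of 1.82 to 81.7 kb, and most filled circles lie below 0.

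Transmitter genes of spinal interneurons fell in 4 cases. All 18 listed were measured, 1 rose and 13 did not pass, with a median of -0.06, against 9.35% of all genes that fell and 11.3% that rose. With ribosomal centring 10 of the 18 fell and 0 rose, where 7777 of all 29214 clusters fell and 619 rose. Slc6a5, the glycine transporter of inhibitory neurons, read 7.32, 7.54 and 7.55 with camptothecin, against 9.17, 9.47 and 9.15 with DMSO, a change of -1.79 (SE 0.11, limma adjusted p = 0.000142). Gad2 (-0.99) and Gad1 (-0.57), which make GABA, and the glutamate transporter Slc17a6 (-0.80) fell as well. These 4 genes span 40.1 to 65.9 kb, in the class of which 16.2% fell, and passed in all 16 alternatives. Cck, a neuropeptide named after its value was seen, was the riser (0.29), lost in 10 of 16. The summed linear signal of the 18 genes was 7817 to 8241 with camptothecin and 9457 to 9960 with DMSO. The 4 genes that fell gave 2013 to 2155 with camptothecin and 3940 to 4202 with DMSO, while the other 14 gave 5768 to 6161 with camptothecin and 5518 to 5816 with DMSO, ranges that overlapped. The split into 4 and 14 used the calls from these same arrays. The lower sum of the 4 therefore follows from the split and is not a further result.

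Progenitor factors that act before the interneuron factors fell in 2 of 14 measured cases and rose in 0, with a median of 0.04. With ribosomal centring 4 fell, where 7777 of all 29214 clusters fell. The share of 2 in 14 is near the 9.35% of all genes that fell in the main fit. The 2 genes were Pax3 (-0.67, limma adjusted p = 0.0134), a dorsal progenitor factor, and Pax6 (-0.58, limma adjusted p = 0.00614), which patterns the ventricular zone. The Pax3 call was lost in 2 of 16 alternatives, one of them without DMSO replicate 1.

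Markers of other cells in or near the cultures were read beside these results, and most lists held 0 or 1 call in a direction, where 9.35% of all genes fell and 11.3% rose. Among 14 motor neuron genes the membrane lectin gene Chodl (-0.44) and the limb-column factor Foxp1 (-0.34) fell and the intermediate filament gene Prph (0.31) rose, and these calls were lost in 7 of 16, 6 of 16 and 11 of 15 alternatives. Of 10 sensory neuron markers, Ntrk3 (-0.47) and Calca (-0.44) fell and Drgx rose. Of 10 progenitor and astroglial markers S100b rose (0.34, lost in 10 of 16), of 6 oligodendrocyte and Schwann cell markers Mbp fell (-0.48), of 8 fibroblast markers Fn1 fell (-0.36, lost in 3 of 16, among them those without DMSO replicate 2 or 3), and of 7 muscle markers Acta1 rose (0.32, lost in 9 of 16). Mbp did not pass with the mean over its clusters (-0.20). Of 8 endothelial, blood and microglial markers the lysosomal gene Cd68 rose (0.86, limma adjusted p = 0.00142), with a summed signal of the list of 664 to 799 with camptothecin and 586 to 607 with DMSO, while Cx3cr1, Aif1 and Ptprc did not pass. Their part in the values of the 7 factors was not tested.

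The genes whose profile over the 6 arrays was most like the 3 factors with the largest estimates were found by the root mean square difference of deviations from each gene's own mean, over 14506 genes. For Lhx5 these were Defb14 (0.029) and Kat8 (0.033), for Evx1 Lpar6 (0.017) and Defb10 (0.022), and for Lbx1 Klk9 (0.021) and Snx5 (0.022), all in log2 units. None of the 6 passed the test, with limma adjusted p from 0.146 for Kat8 to 0.394 for Klk9.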

How the data were processed

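Total RNA of 6 cultures was read on Affymetrix Rat Gene 1.0 ST arrays, with biotinylated cDNA per the labels' protocols. The authors deposited log2 expression values, and the submitters' processing notes list RMA and oligo. Versions, annotation and build are not given. The table held 29214 clusters: 15310 with 1 gene symbol in the platform annotation, 323 with several and 13581 with none. Only the first kind was named, through GRCr8 gene identifiers, and a gene is its cluster with the highest mean. Only 6 arrays limit the precision.

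Values were not normalized further. Camptothecin was compared with DMSO (a two-sided test, camptothecin minus DMSO) with limma 3.58.1 in R 4.3.3, using lmFit and eBayes. P-values were adjusted after Benjamini and Hochberg for all clusters, with 0.05 as the threshold. The fit was tested on simulated data. Exact permutation tests used scipy 1.17.1. Members, lists, tests and alternatives were chosen with earlier results of these data known. Named genes are the 7 factors, the 4 called genes of largest change in each list (fewer where fewer were called, or the 1 of largest change if none was), and 2 genes of like profile for each of the 3 factors with the largest change. Others are marked as named after their values were seen, apart from cell markers given only by brightness or as not passing.

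Pearson's r was 0.992 to 0.995 between arrays of a group and 0.983 to 0.985 between groups. Arrays of a group held equal values (tolerance 0) for 19 to 34 clusters, so none is a copy.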

Additional observations from a re-analysis of the deposited data

How the results depend on the processing

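The changes of the measured factors and of the list genes given with a change were recomputed in 16 settings, as were the list counts. Evx1, Sim1 and other dim genes have 15 settings, since they leave the table without dim clusters. The Lhx1 minus Lhx5 difference was recomputed only on rescaled values and with 1 array left out. The other pairs, the like profiles and the summed signals were computed on the deposited values only. The settings without dim clusters and with 1-symbol clusters only test fewer clusters. For all other settings the cause was not tested. No detection calls came with the values, so how far dimness limits a gene such as Sim1, at the 25.9th percentile of brightness, was not measured.

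Centring on the ribosomal protein genes gave changes of 0.0032 for Lhx5, -0.11 for Evx1, -0.14 for Lbx1, -0.16 for Lhx1, -0.21 for Bhlhe22, -0.29 for Sim1, -0.25 for Lmx1b, -0.094 for Arnt2 and -0.082 for Evx2. Under it 2 of the 7 factors fell, as did 6 relatives, 11 other interneuron factors, 14 partners, 4 progenitor factors, 10 transmitter genes, 8 motor neuron genes, 4 oligodendrocyte and Schwann cell markers, 3 fibroblast markers and 2 in each of the astroglial, muscle and vascular lists. Rises were 1 for other interneuron factors and 0 for partners, transmitter genes and motor neuron, sensory, astroglial and muscle lists. Of all 29214 clusters 7777 fell and 619 rose under it. Centring on the median gave -0.016 for Bhlhe22 and -0.055 for Lmx1b. It gave 2 falls each for relatives, oligodendrocyte and fibroblast lists. It gave 1 rise each for other interneuron factors and partners, and 0 for transmitter, motor neuron, sensory, astroglial and muscle lists. With median centring 1627 of all 29214 clusters rose and 2743 fell. Array weights gave -0.027 for Bhlhe22, 2 falls for relatives and 2 for the oligodendrocyte list. With array weights 3432 of all 29214 clusters rose and 2599 fell.

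Quantile normalization again gave 2 falls each for relatives and fibroblast markers, 3 rises for transmitter genes, and 0 for motor neuron and astroglial lists. Under it 3059 of all 29214 clusters rose and 2701 fell. Without dim clusters 3 transmitter genes, 2 astroglial and 2 vascular markers rose and 0 motor neuron genes did, while 4 motor neuron genes, 2 oligodendrocyte and 1 sensory marker fell. That fit called 3909 of 14607 clusters higher and 2571 lower. With 1-symbol clusters only, 2 transmitter genes rose and 2 oligodendrocyte markers fell, where 2489 of 15310 clusters rose and 1649 fell. With eBayes trend and robust, 3 transmitter genes rose and 2 oligodendrocyte markers fell, where 4070 of all 29214 clusters rose and 2658 fell. With the mean over clusters 2 transmitter genes rose, where 2210 of 14506 genes rose and 1574 fell. At a threshold of 0.01, falls were 0 for relatives, motor neuron and fibroblast lists, 1 for progenitor factors and for sensory markers, and 2 for other interneuron factors. Rises were then 1 for other interneuron factors and 0 for partners, transmitter, motor neuron, sensory, astroglial and muscle lists. At that threshold 749 of all 29214 clusters rose and 1379 fell.

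The correlation of deviations from the group means was -0.084, 0.022 and 0.085 between arrays of the same replicate number 1, 2 and 3. Between arrays of different numbers it ran from -0.16 to 0.15. With 3 arrays per group these values cannot tell whether samples of the same number were paired. With the replicate number as a block, falls were 0 for relatives and 2 for other interneuron factors, and rises were 1 for other interneuron factors and for partners and 0 for transmitter, motor neuron, sensory, astroglial and muscle lists. None of the 7 factors studied passed with the block, under which 1677 of all 29214 clusters rose and 1794 fell.

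With 1 array left out, changes ran from 0.16 to 0.39 for Lhx5, 0.080 to 0.19 for Evx1, 0.067 to 0.16 for Lbx1, -0.010 to 0.18 for Lhx1, -0.046 to 0.15 for Bhlhe22, -0.10 to 0.038 for Sim1 and -0.016 to 0.030 for Lmx1b. The sign turned for Lhx1 without DMSO replicate 3 (-0.010), for Bhlhe22 without camptothecin replicate 2 (-0.046), for Sim1 without camptothecin replicate 1 (0.0059) or DMSO replicate 1 (0.038), and for Lmx1b without DMSO replicate 1 (-0.016). From 0 to 1 of the 7 factors rose, where 1187 to 2327 of all 29214 clusters rose and 1581 to 2078 fell. Falls were 0 for relatives, 2 for other interneuron factors, 1 to 2 for progenitor factors, 0 to 1 for motor neuron genes and 0 to 1 for fibroblast markers. Rises were 1 for other interneuron factors, 0 to 2 for partners, 0 to 1 for progenitor factors, astroglial and muscle lists, and 0 for transmitter, motor neuron and sensory lists. The Lhx1 minus Lhx5 difference ran from -0.31 to -0.064.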
